A study of Mus musculus with 4 samples.

Results

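The genes described here are 10 genes of canonical Wnt signalling: the 4 TCF/LEF factor genes Tcf7, Tcf7l1, Tcf7l2 and Lef1, the beta-catenin gene Ctnnb1, and 5 genes known to respond to or to modulate the pathway, Axin2, Sp5, Sp8, Dact1 and Nkd1. They were taken as a fixed list of names, which was chosen with earlier results of these data known. The binding sites counted for each gene are the FLAG-MIXL1 peaks with at least 1 base within 100 kb of its span. Spans are those of the RefSeq gene table (GRCm38.p6, the assembly of mm10). The 10 genes are among 21523 protein-coding genes used, and 28 of the 9598 peaks of the deposited list lay in their windows. The protein MIXL1, a homeodomain factor of the paired type that marks the primitive streak, was pulled down through its FLAG tag from mouse epiblast stem cells, which correspond to the pluripotent epiblast after implantation. These lines, with a Mixl1 gene that can be induced, were maintained on irradiated mouse embryonic fibroblasts in medium with activin A (20 ng/mL) and bFGF (10 ng/mL). They were then grown as embryoid bodies for 2 days of differentiation in serum. All 4 libraries, 2 of FLAG immunoprecipitates and 2 of input chromatin, came from cells given 1 µg/mL doxycycline for the final 24 h, so every group carried the induced gene. Uninduced cells were not analysed here, and the promoter that drives the gene is given in the labels only as inducible. The list gives 1 set of intervals for the whole series, with no height, score or replicate, so sequencing depth is unknown, no value below has a replicate error, and the intervals given cover counting only. Exons were not used here, so a peak inside a gene is not assigned to an exon or an intron. Expression was not measured, so the identity of the cells could not be checked against marker genes.

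In the canonical Wnt pathway, a ligand stops the destruction complex from degrading beta-catenin, which then enters the nucleus and acts through TCF/LEF proteins bound to DNA. TCF7L1 is known mainly as a repressor in pluripotent cells, while TCF7 and LEF1 act more as activators together with beta-catenin, and TCF7L2 can do either. The pathway is required for the primitive streak, and Axin2, Sp5 and Nkd1 are widely used as readouts of its activity.

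Promoter stretches of 4 genes are shown because Lef1, Axin2 and Sp8 were the 3 genes with the smallest distance from a peak to any annotated start, and because the Sp5 promoter held the most copies of the motifs searched. Sp5 was added after its motifs were seen. Each is the strand of the gene, 5′ to 3′, from RefSeq (GRCm38.p6), and all 4 genes lie on the plus strand. The Lef1 stretch, chr3:131156044-131156293, precedes the start at 131156294, which lies inside the gene. The Axin2 stretch is chr11:108920099-108920348 and the Sp5 stretch is chr2:70474673-70474922. The Sp8 stretch, chr12:118846079-118846287, precedes the first of its 3 starts, at 118846329, although its peak was nearest to the last, at 118847559 (6.93 kb). It stops at the gene span, after 209 bases. The 41 bases left out before that start hold 2 copies of TAAT, 41 and 30 bases before it, so the lack of capitals in the Sp8 stretch covers only what is printed. Capitals mark TAAT, the core that many homeodomains recognise, and CTTTGA, the core of TCF/LEF sites, on either strand, so that ATTA and TCAAAG are capitals too. TAAT and ATTA may overlap each other.
Lef1: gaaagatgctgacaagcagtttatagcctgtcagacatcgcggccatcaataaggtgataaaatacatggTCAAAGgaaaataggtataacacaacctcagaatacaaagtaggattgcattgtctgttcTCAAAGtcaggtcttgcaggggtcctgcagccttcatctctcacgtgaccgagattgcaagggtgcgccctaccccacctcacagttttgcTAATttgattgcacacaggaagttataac
Axin2: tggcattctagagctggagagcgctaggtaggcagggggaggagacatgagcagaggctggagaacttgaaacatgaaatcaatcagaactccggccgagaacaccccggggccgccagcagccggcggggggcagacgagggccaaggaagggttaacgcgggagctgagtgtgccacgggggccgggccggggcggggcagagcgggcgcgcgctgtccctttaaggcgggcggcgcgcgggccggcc
Sp8: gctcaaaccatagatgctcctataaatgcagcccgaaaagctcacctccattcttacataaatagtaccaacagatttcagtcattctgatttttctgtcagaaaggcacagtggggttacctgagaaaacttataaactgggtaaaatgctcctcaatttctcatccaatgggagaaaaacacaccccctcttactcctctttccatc
Sp5: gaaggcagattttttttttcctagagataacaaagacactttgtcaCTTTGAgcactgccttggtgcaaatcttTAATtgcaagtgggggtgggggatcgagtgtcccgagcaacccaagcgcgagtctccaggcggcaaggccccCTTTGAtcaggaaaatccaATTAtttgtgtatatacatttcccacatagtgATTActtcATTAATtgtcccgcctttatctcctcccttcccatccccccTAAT

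None of these stretches lies under a peak, and the sequence under the peaks was not used here. In the 250 bases before a start, TAAT was found at 7 of the 18 annotated starts of the 10 genes, against 49.3% of the 21045 starts of protein-coding genes. CTTTGA was found at 3 of the 18 starts, against 12.8% of all. These were the Sp5 start, the Lef1 start inside the gene and 1 of the 3 starts of Sp8. The longer CTTTGAT, which contains CTTTGA, was found at the Sp5 start, 104 bases before it, against 2.85% of all starts. Sp5 had a second CTTTGA 204 bases before its start and 6 copies of TAAT. The palindromic pair of TAAT and ATTA with 3 bases between them, a known paired-type homeodomain site, was at 0 of the 18 starts and at 0.361% of all. A match is a run of letters and not a measured site.

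MIXL1 peaks lay within 100 kb of 8 of the 10 genes, against 52.8% of all protein-coding genes. The 28 peaks were spread unevenly, with 9 at Tcf7l1, 5 at Tcf7l2, 4 at Sp8, 3 each at Lef1 and Dact1, 2 at Axin2 and 1 each at Tcf7 and Sp5. Ctnnb1 and Nkd1 had none. The median was 2.5 peaks per gene, against 1 over all protein-coding genes, and the means were 2.8 and 1.17. For the 8 genes outside chromosome 12 the median was 1.5. For all 10 it was also 1.5 within 20 kb, with the wider 50% of the peaks and with each peak counted only for its nearest gene. The all-gene median of 1 is for any peak within 100 kb and is no background for those settings. Under them 24.7%, 32.2% and 20.9% of protein-coding genes had a peak. The 10 genes are also longer, with a median span of 34.9 kb against 17.4 kb. No peak was shared between 2 of the genes. Inside the spans lay 13 peaks, and 9 lay upstream and 6 downstream. A peak overlapped the span of 4 genes (Tcf7l1, Tcf7l2, Lef1 and Axin2), against 12.6% of protein-coding genes, and 6 had 1 within 20 kb, against 24.7%. Tcf7l1, Tcf7l2 and Lef1 span 100 kb or more, and 46.9% of such genes held a peak. Sp8 and Dact1 are among the 6, and on chromosome 12 the share within 20 kb was 59.3%, against 23.6% elsewhere.

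**Figure D1:**
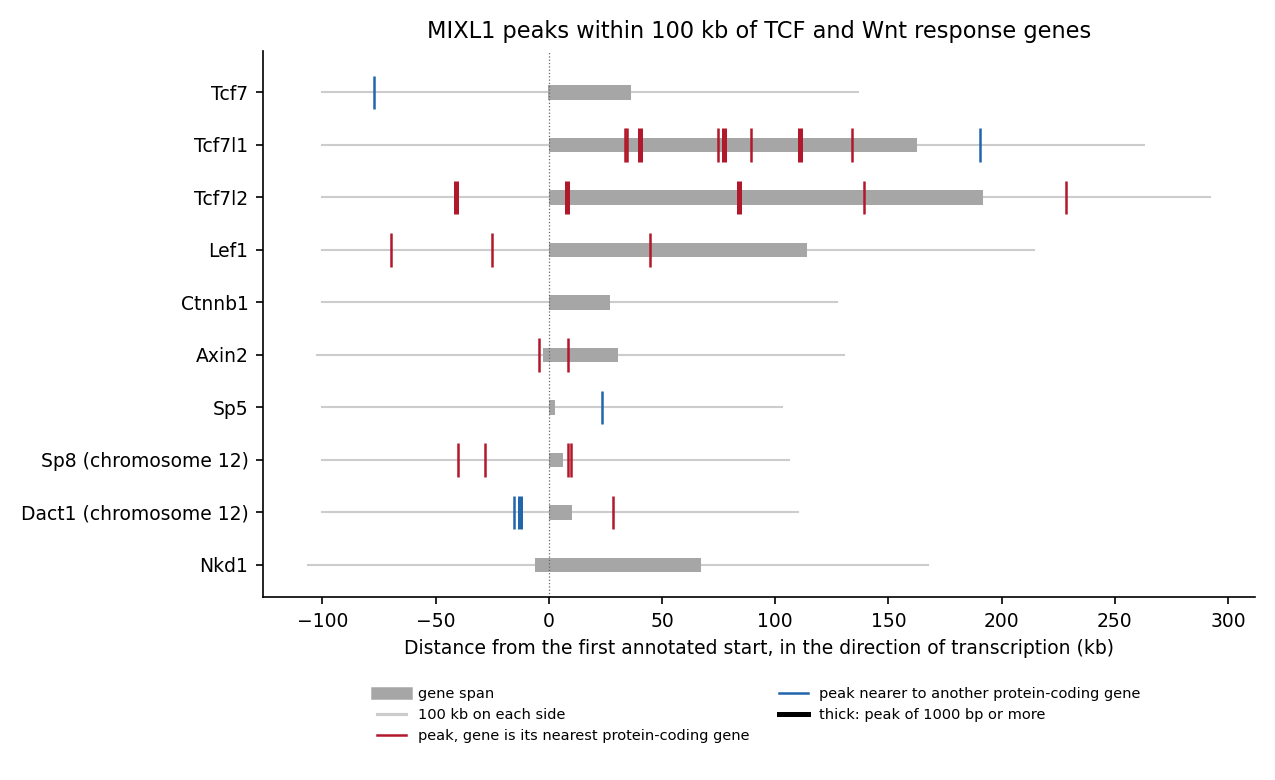
Position of each of the 28 peaks (vertical lines, drawn at the peak centre) relative to the first annotated start of each of the 10 genes, in kb along the direction of transcription. Grey bars are gene spans, thin lines add 100 kb on each side, thick lines are peaks of 1000 bp or more, and blue lines are peaks nearer to another protein-coding gene. Tcf7l1 holds 8 peaks inside its span, while Ctnnb1 and Nkd1 have no line.

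Tcf7l1 (chr6:72626371-72789045, minus strand, span 163 kb) had the most peaks of the 10 genes, and 8 of its 9 lay inside the gene. From the start side, the first 2 were at chr6:72755119-72755552 and chr6:72754375-72754768, only 351 bp apart and 33.7 and 34.5 kb into the gene, by their centres. The widest of the 28 peaks, 1394 bp, followed at chr6:72748020-72749413, where the predicted gene Gm31249 overlaps Tcf7l1. A second close pair, 1.55 kb apart, lay at chr6:72713971-72714949 and chr6:72711242-72712421. Single peaks stood at chr6:72699507-72700078, chr6:72677331-72678527 and chr6:72655087-72655639. The 8 peaks thus covered a stretch of 100.5 kb, from 20.7 to 82.2% of the span, and none lay in the part nearest the start or upstream within 100 kb. The ninth peak, chr6:72598358-72598766, lay 27.6 kb downstream, inside the overlapping genes Elmod3 and Retsat.

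The window of Tcf7l1 held 24.8 peaks per Mb (95% exact Poisson interval 11.3 to 47.1), against 3.01 per Mb on chromosome 6, a ratio of 8.25 (interval 3.77 to 15.7). At least 9 peaks were found at 218 protein-coding genes, or 1.01% of all, and 68 of these lay on chromosome 12, where the list is densest. On chromosome 6, Tcf7l1 was the only 1 of 1120 genes with as many. Of the 2425 genes with a span of 100 kb or more, 1.2% had at least 8 peaks inside.

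Tcf7l2 (chr19:55741797-55933659, plus strand, span 192 kb) had 5 peaks, and Tcf7l2 was the nearest protein-coding gene of each. One lay at chr19:55749474-55750495, with its edge 7.66 kb after the first start. A second inside peak was at chr19:55825478-55826483, and the third, at chr19:55880761-55881119, ended 14.2 kb before a later annotated start at 55895321. The other two lay 40.4 kb upstream (chr19:55700205-55701353, in the noncoding genes 4930552P12Rik and Gm41871) and 36.3 kb downstream (chr19:55969915-55970448). The density was 12.8 per Mb (interval 4.14 to 29.8) against 3.28 on chromosome 19, a ratio of 3.9 (interval 1.26 to 9.09). As many peaks were found at 3.84% of all protein-coding genes and at 7.75% of the 2167 genes with a span from 0.5 to 2 times its own.

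Lef1 (chr3:131110297-131224357, plus strand, span 114 kb) had 3 peaks. The 1 inside the gene, chr3:131154486-131155153, ended 1.14 kb before the annotated start whose promoter is printed above. This was the smallest distance between any of the peaks and an annotated start of the 10 genes. The other two lay 24.7 kb (chr3:131084689-131085570) and 69.4 kb (chr3:131040574-131040867) upstream, with no other protein-coding gene nearer. The ratio to the density of chromosome 3 was 3.91 (interval 0.807 to 11.4), so its lower bound lay under 1. At least 1 peak inside the span was common among genes of 100 kb or more, at 46.9%.

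Tcf7 (chr11:52246527-52283383, minus strand, span 36.9 kb) had 1 peak, the farthest of the 28 from its gene. It lay 76.6 kb upstream at chr11:52360028-52360387, and 0.464 kb from Vdac1, a gene of the mitochondrial outer membrane channel. The density ratio was 0.847 (interval 0.0214 to 4.72). Within the TCF/LEF family the order by peaks was thus Tcf7l1, Tcf7l2, Lef1, Tcf7, with 8, 3, 1 and 0 peaks inside the genes. The spans, of 163, 192, 114 and 36.9 kb, do not follow the same order. The density intervals of all 4 genes overlapped one another, from Tcf7l1 (11.3 to 47.1 per Mb) to Tcf7 (0.107 to 23.5). Differences between the genes were not tested, so the order only describes the counts. Together the 4 genes held 18 of the 28 peaks and 12 of the 13 that lay inside a span, 8 of these in Tcf7l1 alone. The spans of the other 6 genes run only from 2.8 kb (Sp5) to 73.5 kb (Nkd1). Longer genes have wider windows, and whether these shares differ from what gene length gives was not tested. The shares are thus not given as a measure of concentration at the family.

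**Figure D2:**
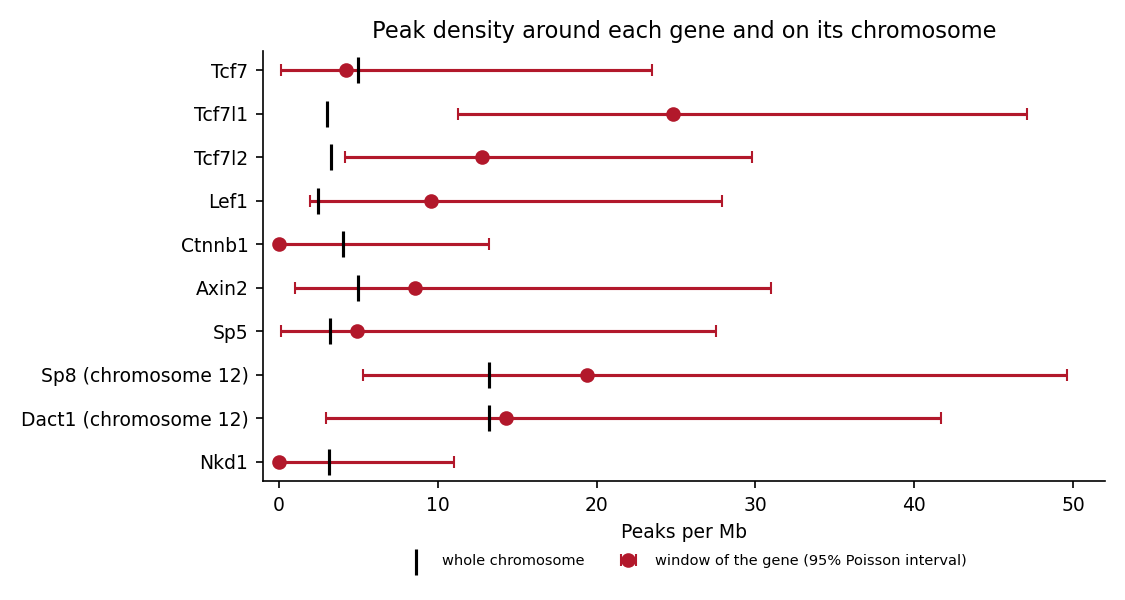
Peaks per Mb in the window of each of the 10 genes (points, the span plus 100 kb on each side, with 95% exact Poisson intervals, or the limit of 3 counts where no peak was found) and on its whole chromosome (black marks). The intervals of Tcf7l1 and Tcf7l2 lie above the mark of their chromosome, and the other 8 include it.

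Ctnnb1 (chr9:120933400-120960507, plus strand), which encodes beta-catenin, the partner of the TCF/LEF factors, had no peak within 100 kb. A count of 0 in its window allows up to 13.2 peaks per Mb, above the 4.06 per Mb of chromosome 9, so a density below that of the chromosome was not detectable. Its nearest peak, chr9:121068588-121068932, lay 108 kb downstream inside Ulk4, a kinase-like gene, with another peak 7.27 kb further. Nkd1 (chr8:88521342-88594887, plus strand), whose product binds Dishevelled and dampens Wnt signalling, had none either. Its limit was 11.0 peaks per Mb against 3.16 on chromosome 8. The nearest peak, chr8:88413761-88414402, was 107 kb upstream and nearer to Brd7. At the threshold of 100 kb, Tcf7 at 76.6 kb was thus the last gene inside, and Nkd1 and Ctnnb1 at 107 and 108 kb were just outside. Within 200 kb all 10 genes had a peak, against 70.3% of protein-coding genes.

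Axin2 (chr11:108917828-108950783, plus strand), a scaffold of the destruction complex that acts as a feedback inhibitor, had 2 peaks on either side of its annotated start. The upstream peak, chr11:108916037-108916403, ended 1.43 kb before the span and 3.95 kb before the start printed above. The other, chr11:108928763-108929156, lay inside the gene, 8.41 kb after that start. Both were narrow, at 367 and 394 bp, against a median of 485 bp over the 9403 peaks on chromosomes 1 to 19 and X. The density ratio was 1.72 (interval 0.209 to 6.22).

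Sp5 (chr2:70474923-70477726, plus strand), a zinc-finger factor gene and direct Wnt target, had 1 peak 20.3 kb downstream. This peak, chr2:70498013-70498817, lay in the noncoding gene Gad1os and only 9.85 kb from Erich2, so Sp5 was not its nearest protein-coding gene. With 1 peak, Sp5 matched 52.8% of protein-coding genes, which had 1 or more. The density ratio was 1.54 (interval 0.0391 to 8.6).

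Sp8 and Dact1 lie on chromosome 12, which had 13.2 peaks per Mb and a peak within 100 kb of 91.2% of its 678 protein-coding genes. Sp8 (chr12:118846288-118852578, plus strand), a relative of Sp5, had 4 peaks. A pair 1.08 kb apart lay just downstream, at chr12:118854494-118854817 and chr12:118855897-118856676, the nearer 1.92 kb from the span. The other two lay 27.8 and 39.6 kb upstream, at chr12:118818235-118818529 and chr12:118805987-118806736. Of all protein-coding genes 7.1% had at least 4 peaks, but on chromosome 12 the share was 49.0%, and the density ratio of Sp8 to its chromosome was 1.47 (interval 0.401 to 3.77).

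Dact1 (chr12:71309884-71320107, plus strand), which encodes a Dishevelled-binding antagonist, had 3 peaks. A pair 1.29 kb apart lay 12.2 and 14.9 kb upstream, at chr12:71296290-71297652 and chr12:71294051-71294996, both inside the neighbouring gene 2700049A03Rik. The third, chr12:71337945-71338322, lay 17.8 kb downstream. At least 3 peaks were found at 13.7% of all protein-coding genes and at 60.9% of those on chromosome 12, with a density ratio of 1.08 (interval 0.223 to 3.17). Both intervals include 1, so for neither gene were more peaks than its chromosome gives detected beyond counting error. Their upper bounds, 3.77 for Sp8 and 3.17 for Dact1, also allow a higher density than that of the chromosome. Among the 8 genes on other chromosomes, 6 had a peak within 100 kb, against 51.6% of the protein-coding genes there, and they held 21 of the 28 peaks. Density on chromosome 12 and the number of peaks at Sp8 and Dact1 cannot be told apart in this list.

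**Figure D3:**
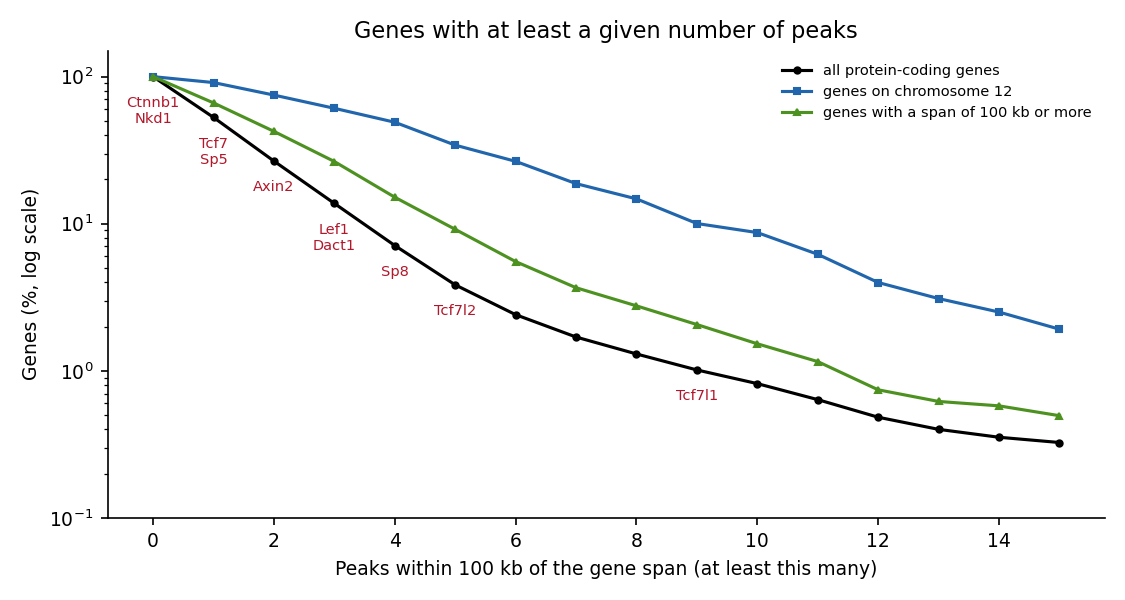
Percentage of genes (log scale) with at least a given number of peaks within 100 kb, for all protein-coding genes, for those on chromosome 12 and for those with a span of 100 kb or more. Gene names stand under the black curve at the number of peaks of each of the 10 genes. Tcf7l1, at 9 peaks, sits where 1.01% of all genes remain, while Sp8, at 4, sits at 7.1% on the black curve and 49.0% on the blue.

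Over the 10 windows, 13.4 peaks would be found at the densities of the chromosomes themselves, and the 28 observed gave a ratio of 2.09 (interval 1.39 to 3.02). Without Tcf7l1 the other 9 genes held 19 peaks against 12.3, a ratio of 1.54 (interval 0.929 to 2.41), so the lower bound above 1 rested on that gene. Peaks cluster, so these intervals, which treat peaks as independent, are too narrow.

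**Figure D4:**
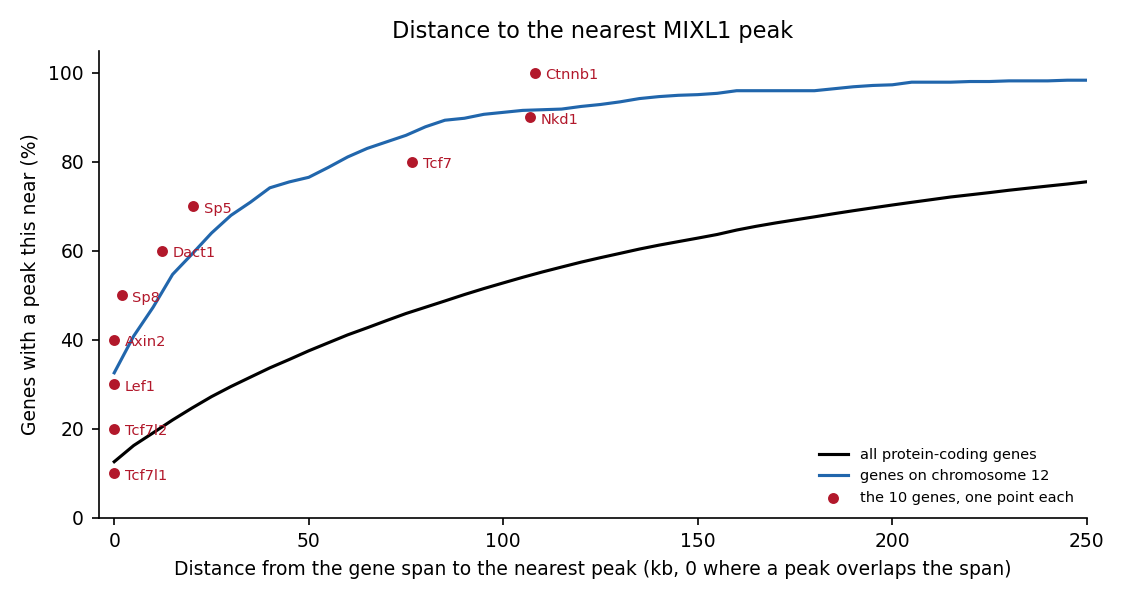
Percentage of genes whose nearest peak lies within a given distance of the span (kb), for all protein-coding genes (black), genes on chromosome 12 (blue) and the 10 genes (red points, in order of distance). The points run from 0 kb at Tcf7l1, Tcf7l2, Lef1 and Axin2 to 108 kb at Ctnnb1, with a median of 7.07 kb, against 89.3 kb for all genes and 11.9 kb on chromosome 12.

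The 28 peaks had a median width of 620 bp, against 485 bp for all peaks, and a range of 294 to 1394 bp. A width of 1000 bp or more was found for 7 of them (25.0%, 95% Wilson interval 12.7 to 43.4), against 12.5% of all 9403, and the interval includes that share. These 7 lay at 3 genes, namely Tcf7l1, Tcf7l2 and Dact1. The interval treats peaks as independent, although peaks cluster, so it is too narrow. Another peak within 10 kb was found for 9 of the 28 (32.1%), near the 30.3% of all peaks. Of the 28 peaks, 23 had the gene itself as their nearest protein-coding gene and 5 did not: that of Tcf7, that of Sp5, the downstream peak of Tcf7l1 and the upstream pair of Dact1. With only the 23 counted, 6 of the 10 genes had a peak, against 20.9% of protein-coding genes under the same rule. That share covers all chromosomes and gene lengths. Among the 6, Sp8 and Dact1 lie on the dense chromosome 12, and Tcf7l1, Tcf7l2 and Lef1 have spans of 114 kb or more.

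Other genes, 116 in 7 lists of Wnt genes or paralogs, were near a peak in 77 cases. This share was 66.4% (Wilson interval 57.4 to 74.3), against 52.8% of protein-coding genes. It does not cover Wnt pathway genes alone, because the 116 include the paralogs described below, among them several Sp genes. The median span of the 116 was 28.1 kb, and the median number of peaks was 1, as over all genes. Receptor genes had a peak within 100 kb in 15 of 18 cases, with a median distance to the nearest of 5.83 kb. Their median span was 51.0 kb, against 17.4 kb for all genes, and longer genes have wider windows. Fzd7 and the co-receptor gene Ror2 had 5 peaks each, the latter all inside the gene, and Fzd3 had 4. Secreted and membrane modulators gave 16 of 21, led by the Dickkopf gene Dkk3, Kremen1 and the ubiquitin ligase gene Znrf3 with 3 each. The median span of the modulators was 32.0 kb, also above the 17.4 kb of all genes. Kremen1 and Znrf3 are neighbours and shared 2 of their 4 distinct peaks.

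Genes of the destruction complex and its transducers gave 13 of 18 (72.2%, Wilson interval 49.1 to 87.5), against 52.8% of all genes. Btrc, a ubiquitin ligase subunit gene that targets beta-catenin, led with 7 peaks, 2 of them inside the gene. The tankyrase gene Tnks followed with 3. Frat1 and Frat2 lie close together and shared the same 2 peaks. Ligand genes gave 12 of 19 (63.2%, interval 41.0 to 80.9), with at most 2 peaks each, at Wnt2, Wnt3a, Wnt5a, Wnt8a and Wnt9a. Wnt3a and Wnt9a lie side by side and shared both of their peaks. Wnt1 and Wnt10b shared their 1 peak, as did Wnt6 and Wnt10a, so the 12 ligand genes do not stand for separate peaks. Partners of TCF and beta-catenin in transcription gave 10 of 19, a share of 52.6% and so near that of all genes. The Groucho-type corepressor gene Tle3 stood first with 10 peaks, followed by Pygo1 with 6 and Bcl9l and Pygo2 with 3 each. Only 1 of the 10 lay inside Tle3, and none lay inside Pygo1, Bcl9l or Pygo2, with the nearest to Pygo1 at 45.0 kb. At least 10 peaks were found at 0.818% of protein-coding genes, and at least 6 at 2.41%. Other Wnt response genes gave 9 of 17 (52.9%), with 8 peaks around Msx1, none of them inside its span and the nearest at 1.23 kb, 3 at Znrf3, and 2 each at Fgf8, Lgr5 and Msx2.

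Paralogs of the 10 genes outside the TCF/LEF family were near a peak in 6 of 12 cases, a share near the 52.8% of all protein-coding genes. Sp2 had 4 peaks and its neighbour Sp6 had 2, both shared with Sp2. Sp1 had 3 and its neighbour Sp7 had 2, again both shared. Sp4, the only 1 of the 12 on chromosome 12, had 2, and Jup, which encodes gamma-catenin, had 1 inside the gene. Sp3 and Sp9 had none within 100 kb, with the nearest at 472 and 297 kb. The feedback gene paralogs Axin1, Nkd2, Dact2 and Dact3 had none either, and their nearest peaks lay at 467, 615, 120 and 691 kb.

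**Figure D5:**
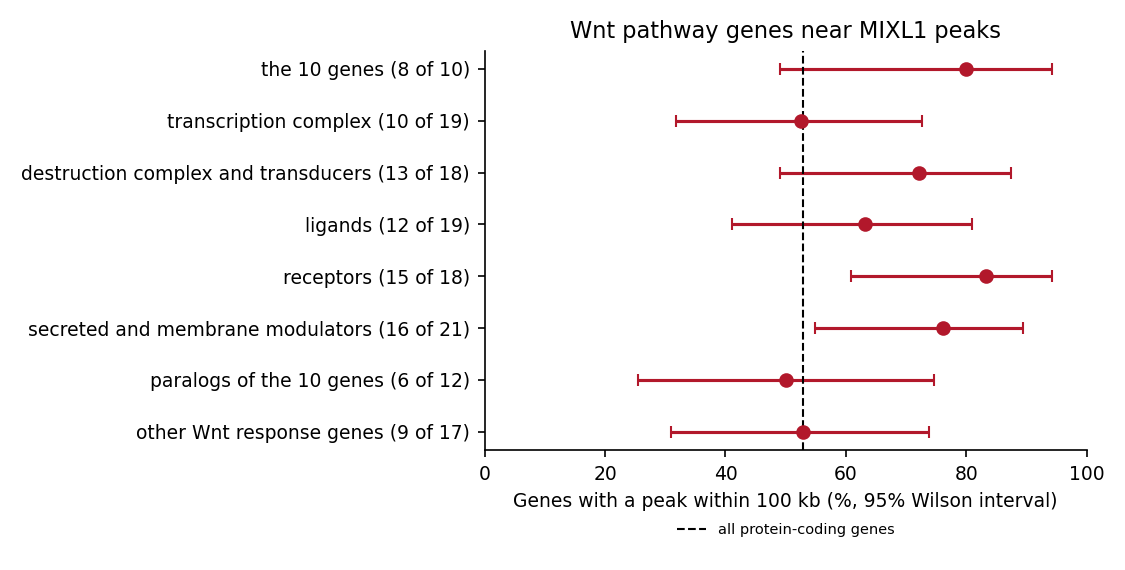
Percentage of genes with a peak within 100 kb in each list of Wnt genes or paralogs (points, with 95% Wilson intervals). Counts stand beside the names, and the share of all protein-coding genes, 52.8%, is a dashed line. The intervals of receptors and of secreted and membrane modulators lie above the line, and those of the 10 genes and of the other 5 lists include it. The lower bound of the modulators, 54.9%, is close to the line. Intervals treat genes as independent, although some neighbours share peaks and 8 genes stand in 2 lists. Receptors and modulators also have longer median spans, 51.0 and 32.0 kb against 17.4 kb for all genes.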

How the data were processed

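FLAG-MIXL1 immunoprecipitates (2 libraries) and input chromatin (2 libraries) enter only through the 1 list of peaks the authors deposited, with chromosome, start and end. Per the submitters' processing notes, the tools were CASAVA 1.8.2, Bowtie2, SAMtools and MACS2, and the build was mm10. How peaks were thresholded and filtered, and how input and replicates were used, is not given in the sources used here.

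Peaks on chromosomes 1 to 19 and X (9403) were set against gene spans from RefSeq (GRCm38.p6), without genes starting in the first 3 Mb. Annotated starts and strands came from the RefSeq promoter table, in which all 10 genes were found. Positions are printed 1-based. Distances run from the peak edge to the gene span, unless stated. Density was taken over the length from 3 Mb to the last gene end of each chromosome. No test was run, since the list holds no replicates. The 10 genes and the Wnt lists were chosen with earlier results of these data known. Tcf3, the E2A gene, was left out of the lists. Named genes are the 10, from each list those with the most peaks (up to 3, or up to 5 where tied), and the paralogs. Genes nearest to the peaks and neighbours that shared peaks are named too. Counting and distances were checked on simulated intervals against a direct calculation. Alternatives were windows of 20, 50 and 200 kb, the wider 50% of the peaks, peak centres, nearest-gene assignment, leaving out chromosome 12 and, chosen after seeing the data, leaving out Tcf7l1. Calculations ran in Python 3.11.15 with pandas 2.3.3, numpy 2.4.6 and scipy 1.17.1, and plots in matplotlib 3.10.9.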

Additional observations from a re-analysis of the deposited data

How the results depend on the processing

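The number of genes with a peak stayed within 1.5 times the 8 reported in every alternative run, from 6 to 10. With 10 genes it could not rise further, so only a fall could pass that limit. It was 6 of 8 genes outside chromosome 12 and 7 of 9 without Tcf7l1. The number of peaks moved further with the 200 kb window (47) and with the wider 50% of the peaks (17), against 28. The median per gene, 2.5, was 1.5 within 20 kb, with the wider peaks, with nearest-gene assignment and for the 8 genes outside chromosome 12. Of the 116 genes of the other lists, 47 were near one of the wider peaks, against 77 near any peak, while all protein-coding genes fell to 32.2%. By construction these alternatives use fewer or more peaks, genes or bases. At the 10 genes singly, 18 of 60 counts moved by more than 1.5 times. Tcf7 had no peak within 20 or 50 kb, among the wider peaks or by nearest gene, Sp5 had none within 20 kb or by nearest gene, and Axin2 had none among the wider peaks. No paired analysis was possible because the list does not keep the replicates apart, and for the same reason no replicate could be left out. Depth is unknown, so a gene without a peak may carry binding under the authors' threshold.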

Other observations

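Beyond 100 kb, the surroundings of the TCF genes held further peaks inside or beside other genes. Upstream of Tcf7l2, 3 peaks lay inside Vti1a, a gene of vesicle transport, from 152 to 185 kb before the Tcf7l2 span. Upstream of Tcf7l1, a peak of 1127 bp lay 167 kb away and 0.491 kb from Tmsb10, which encodes an actin-binding thymosin. The stretch of 1 Mb on each side of Tcf7l1 held 18 peaks in all, of which 9 were those described above. Around Sp8 the same stretch held 18 peaks and around Dact1 it held 26, and the widest peak within 200 kb of any of the 10 genes, 1860 bp, lay 184 kb upstream of Sp8.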
